A study of Mus musculus with 10 samples.

Results

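The *Serpina* genes examined here were 10 genes of serpin clade A, *Serpina12*, the *Serpina1* paralogs *Serpina1a*, *1b*, *1c*, *1d* and *1e*, the *Serpina3* paralogs *Serpina3k*, *3m* and *3n*, and *Serpina6*. They were chosen by their gene symbols from earlier results of these same livers, out of 24052 symbols counted in all and 25 *Serpina* symbols among them. The wild-type (WT) against Ndrg3 LKO values of the 10 genes are therefore given as a description, without a test. Livers of 5 WT mice and 5 Ndrg3 LKO mice were sequenced, with 1 library per liver. All mice were of the C57BL/6 background by the labels and fed ad libitum, and the methods give C57BL/6N as the strain to which the floxed line was crossed back. The Ndrg3 LKO mice carry a floxed *Ndrg3* allele that lacks exon 4 after recombination by Cre under the albumin gene promoter, which is active in hepatocytes, and the controls were WT littermates. Male mice were used unless stated otherwise, and the livers, shared with the metabolome, came from mice of 8 to 10 weeks by the methods but of 10 to 12 weeks by a figure legend.

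Serpins are proteins with a common fold, most of which trap a serine protease by offering it an exposed stretch, the reactive centre loop. The protease cuts the loop and is then held in an inactive complex, so the residues of the loop set which proteases are inhibited. The liver secretes clade A serpins into plasma in large amounts. α1-Antitrypsin, encoded by the *Serpina1* genes, is best known for inhibiting neutrophil elastase, and mice carry several copies of the gene where humans have a single one. The mouse *Serpina3* genes form an expanded family related to human α1-antichymotrypsin. *Serpina12* encodes vaspin, known as an adipokine and an inhibitor of the kallikrein KLK7, and *Serpina6* encodes corticosteroid-binding globulin, which carries glucocorticoids in plasma and does not inhibit proteases.

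The 5 *Serpina1* coding sequences, each of 1242 bases, were 96.3 to 98.5% identical to each other in the mm9 transcripts, whereas *Serpina12* was only 53.8 to 57.6% identical to the other 9 genes. The 45 coding bases that lie directly before the conserved end of the loop region, bases 1102 to 1146, are shown because the 5 paralogs differ at 13 of them. Capitals mark the 13 positions.
Serpina1a: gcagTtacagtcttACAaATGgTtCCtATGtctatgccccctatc
Serpina1b: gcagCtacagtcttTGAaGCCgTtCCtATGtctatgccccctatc
Serpina1c: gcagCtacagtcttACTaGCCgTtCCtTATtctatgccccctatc
Serpina1d: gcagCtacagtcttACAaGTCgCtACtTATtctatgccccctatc
Serpina1e: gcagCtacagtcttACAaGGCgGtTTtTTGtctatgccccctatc

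Between 4 bases (*Serpina1c* and *1d*) and 8 bases differ in a pair of these stretches. The matching stretch of the *Serpina3* genes, bases 1123 to 1167 of coding sequences of 1257 bases, varies far more, with 38 of 45 positions that differ among *Serpina3k*, *3m* and *3n*. It is shown for the same reason, with the varying positions in capitals.
Serpina3k: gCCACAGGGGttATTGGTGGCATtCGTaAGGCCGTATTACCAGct
Serpina3m: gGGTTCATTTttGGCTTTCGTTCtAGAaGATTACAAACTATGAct
Serpina3n: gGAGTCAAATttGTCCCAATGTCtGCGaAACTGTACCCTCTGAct

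Sequence likeness bears on the counts. Of all 100-base windows of a transcript, the length of a read, the share found letter for letter in another gene's transcript was 14.8% for *Serpina1e*, 24.6% for *1b*, 26.3% for *1d*, 47.4% for *1a* and 58.5% for *1c*. In each of these 5 the windows were shared with the other *Serpina1* genes. It was 6.11% for *Serpina3k* and 6.09% for *3m*, which share with each other, 0.0509% for *3n*, and no window of *Serpina12* or *Serpina6* was shared. How the counting treated reads that fit several genes is not given in the sources used here, so the split of counts among *Serpina1a* to *1e* is uncertain. *Serpina1c* also overlaps *B430119L08Rik* on the opposite strand, and the strand setting of the counting is not given either.

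The libraries held between 20872262 and 24747870 counts per WT liver and between 23474693 and 30450057 per Ndrg3 LKO liver. At these depths 3 counts, taken as the lowest signal a library can show, equal 0.0727 to 0.179 CPM, a count scaled to the size of its library. All CPM values have library sizes adjusted by TMM, a scaling to the bulk of genes, and are given in the order of replicates 1 to 5. *Ndrg3* itself was at 17.8, 17.7, 15.9, 19.1 and 21.9 CPM in the WT livers and at 7.07, 8.05, 9.16, 7.78 and 8.25 in the Ndrg3 LKO livers, so every liver fits its label by the targeted gene. Its log2 fold change was -1.20 ± 0.13 (SE, n = 5 per group; edgeR adjusted p = 3.87e-05), and the counts cover the whole gene, not exon 4 alone.

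The paper's legends for the metabolome and RNA sequencing figures give 4 Ndrg3 LKO livers, whereas its methods give 5 for the metabolome. Its main text does not say which livers the 4 were. The liver labelled Ndrg3 LKO replicate 5 stood apart from the other Ndrg3 LKO livers. On the first principal component of all tested genes, which holds 68.7% of the variance, it lay at 14.1, whereas Ndrg3 LKO replicates 1 to 4 lay between 51.1 and 56.6 and the WT livers between -49.9 and -43. Its *Ndrg3* level was within the range of the other 4. The 10 genes are therefore given with and without this liver, and so are the counts and medians of the gene lists and the other named genes whose fold change it moved by more than 1.5 times. Over all genes 5443 of 11208 tested differed between the groups (edgeR quasi-likelihood test, adjusted p under 0.05), 2865 of them higher and 2578 lower after *Ndrg3* loss, and the median over all tested genes was 0.031 on the log2 scale. Without replicate 5, 6360 of 11446 differed. Scaling by library size alone raised the median by more than 0.1, to 0.56, and the share of higher genes among those that differed from 52.6 to 85.2%, so directions below are relative to the bulk of genes.

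**Figure D1:**
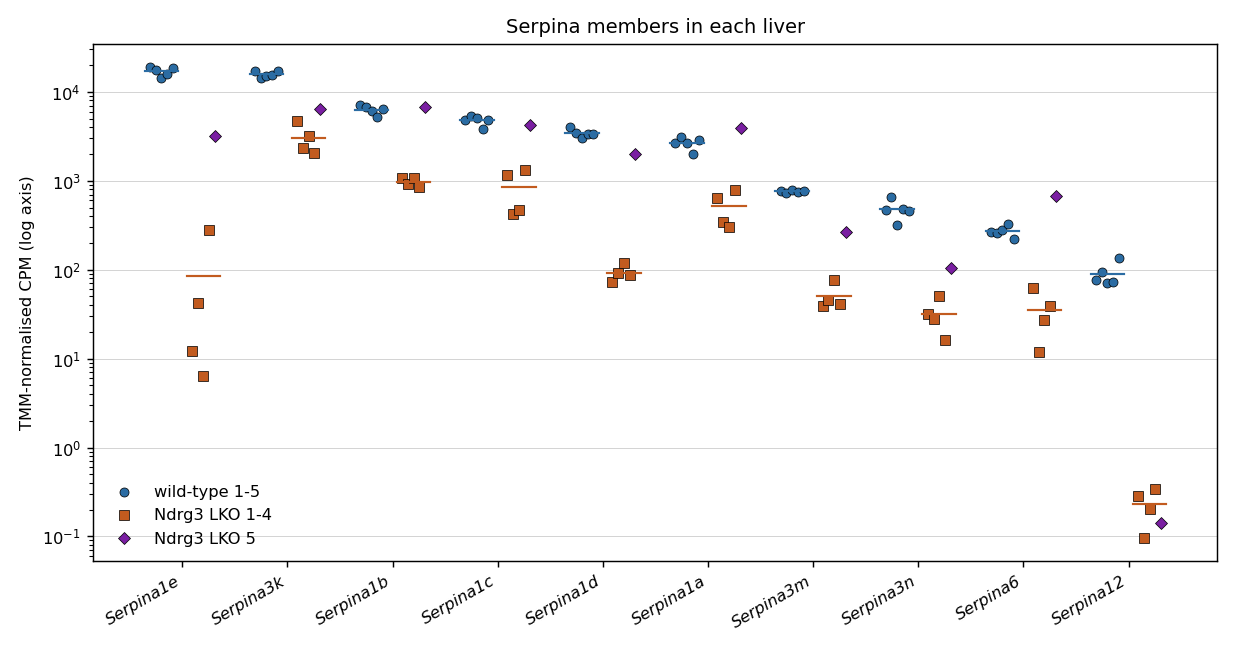
TMM-normalised CPM (log axis) of the 10 *Serpina* genes in each liver, with a point per liver, blue for WT, orange for Ndrg3 LKO replicates 1 to 4 and purple for replicate 5; lines are the means of the 5 WT livers and of the 4 Ndrg3 LKO livers. The orange points lie below all blue points for each gene, while the purple point reaches or passes the WT livers for 4 genes and lies with the orange points for *Serpina12* alone.

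In Ndrg3 LKO replicates 1 to 4 all 10 *Serpina* genes were below every WT liver. The same pattern was found in 22.3% of the 11446 genes tested without replicate 5. With replicate 5 included, 6 of the 10 were below every WT liver in all Ndrg3 LKO livers, beside 15.9% of the 11208 tested genes. Since these values chose the genes, nothing is read from the counts. The 10 genes together took 4.31 ± 0.221% (SD, n = 5) of all counts in the WT livers, between 0.573 and 0.926% in Ndrg3 LKO replicates 1 to 4, and 2.48% in replicate 5. In bulk liver, fewer cells of a type and less RNA per cell cannot be told apart.

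*Serpina12*, the vaspin gene, lies on the minus strand of chromosome 12 (mm9 chr12:105266979-105282653). Its CPM was 77.3, 95.3, 70.7, 72.3 and 135 in the WT livers. In the Ndrg3 LKO livers it was 0.287, 0.0969, 0.206, 0.342 and 0.141, which rests on 10, 4, 8, 12 and 3 counts against 1270 to 2273 counts in the WT livers. The groups were far apart, and all 5 Ndrg3 LKO livers, replicate 5 included, were near the lowest signal a library can show. The WT mean was 420 times the Ndrg3 LKO mean. The 3 counts of replicate 5 have a 95% Poisson interval of 0.619 to 8.77, which covers counting error only. The log2 fold change was -8.67 ± 0.33 (SE) with all livers and -8.61 ± 0.35 without replicate 5, the lowest of the 10 genes and the one that replicate 5 moved least.

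The *Serpina1* paralogs were not lowered to the same degree. *Serpina1e* had the highest mean of the 10 genes in WT livers, with 18794, 17686, 14257, 16020 and 18452 CPM. In the Ndrg3 LKO livers it was at 12.2, 42.3, 6.36, 280 and 3187 CPM. The groups did not overlap, and the Ndrg3 LKO livers differed among themselves more than for any other member, with a CV of 154% over replicates 1 to 4. By counts it ranked between 4th and 7th of all genes in the WT livers, at 477th or lower in Ndrg3 LKO replicates 1 to 4, and 40th in replicate 5. Its log2 fold change was -4.59 ± 1.44 with all livers and -7.65 ± 1.13 without replicate 5.

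*Serpina1d* was at 4062, 3465, 3060, 3347 and 3343 CPM in the WT livers. It was at 73.4, 91.1, 119 and 86.2 CPM in Ndrg3 LKO replicates 1 to 4 and at 1977 in replicate 5. Replicates 1 to 4 were close together and 37.3 times below the WT mean, while replicate 5 lay between them and the WT livers. The log2 fold change of *Serpina1d* was -2.88 ± 0.91 with all livers and -5.23 ± 0.21 without replicate 5.

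*Serpina1b* was at 7077, 6715, 6081, 5194 and 6401 CPM in the WT livers and at 1067, 909, 1080, 854 and 6713 in the Ndrg3 LKO livers. *Serpina1c* was at 4840, 5290, 5117, 3845 and 4809 CPM in the WT livers and at 1168, 428, 465, 1334 and 4242 in the Ndrg3 LKO livers. *Serpina1a* was at 2635, 3081, 2642, 2017 and 2887 CPM in the WT livers and at 637, 345, 303, 795 and 3893 in the Ndrg3 LKO livers. For *Serpina1b* and *1c* replicate 5 was inside the WT range, and for *1a* it was above every WT liver. Without replicate 5 the log2 fold changes were -2.70 ± 0.17 for *1b*, -2.51 ± 0.35 for *1c* and -2.36 ± 0.29 for *1a*, that is 5.1 to 6.44 times below the WT mean. With all livers they were -1.57 ± 0.56, -1.65 ± 0.54 and -1.15 ± 0.61, and the groups overlapped. *Serpina1a* and *1c* were each lower in replicates 2 and 3 than in replicates 1 and 4.

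**Figure D2:**
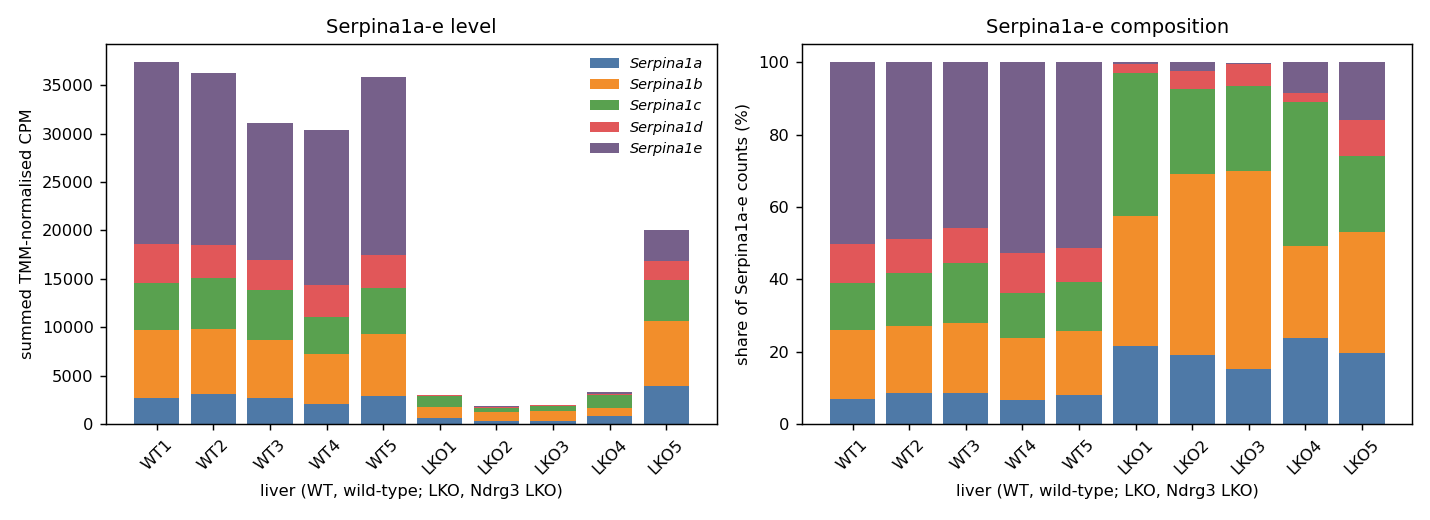
Left, stacked bars of TMM-normalised CPM of *Serpina1a* to *Serpina1e* in each liver; right, the share of each in the summed *Serpina1a* to *1e* counts of that liver, in percent. *Serpina1e* makes up 45.8 to 52.7% in the WT livers, 0.322 to 8.37% in Ndrg3 LKO replicates 1 to 4 and 15.9% in replicate 5.

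The make-up of the *Serpina1* counts differed between the groups. *Serpina1e* supplied 49.8 ± 2.66% (SD, n = 5) of the summed *Serpina1a* to *1e* counts in the WT livers. It supplied 0.322 to 8.37% in Ndrg3 LKO replicates 1 to 4 and 15.9% in replicate 5. *Serpina1b* supplied 18.4 ± 0.951% in the WT livers, 25.5 to 54.7% in replicates 1 to 4 and 33.5% in replicate 5. *Serpina1d* made up 10.1 ± 0.77% in the WT livers and 2.48 to 6.05% in replicates 1 to 4, whereas replicate 5, with 9.88%, was within the WT range of 9.32 to 11%. Replicate 5 thus had a summed *Serpina1* level of 20012 CPM, nearer to the WT mean of 34224 ± 3195 than to the 1816 to 3349 of the other Ndrg3 LKO livers, but a share of *Serpina1e* outside the WT range. The *Serpina1e* share was also below the WT range on the scale of counts per kilobase of exon, with 47.4 ± 2.61% in the WT livers, 0.294 to 7.96% in replicates 1 to 4 and 15.1% in replicate 5. These shares carry the uncertainty of reads that fit several paralogs.

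In these 5 genes the stretch compared upstream of the annotated start was almost identical, though not directly before that start in each gene. RefSeq promoters of GRCm38.p6, a later build than the mm9 of the counts, were matched for 7 of the 10 genes, *Serpina12*, *Serpina3n* and *Serpina1a* to *1e*. A stretch of 56 bases was cut at fixed distances around the letters GTTAAT, so its length does not show how far the likeness reaches. It ends 0 to 62 bases before the annotated start in the 5 *Serpina1* promoters. It is shown, on the minus strand, because 4 of the 5 genes have the same 56 letters and *Serpina1d* differs at 1 of them, which is in capitals.
Serpina1e, chr12:103956960-103957015: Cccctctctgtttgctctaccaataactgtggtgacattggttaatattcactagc
Serpina1d, chr12:103773634-103773689: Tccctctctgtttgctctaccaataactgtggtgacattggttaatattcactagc

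The stretch is the same in *Serpina1a*, *1b*, *1c* and *1e*, whose log2 fold changes without replicate 5 ranged from -2.36 to -7.65. It ends at the annotated start in *1d*, 5 to 11 bases before it in *1a*, *1b* and *1c*, and 62 before it in *1e*.

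*Serpina3k* was the most abundant of the *Serpina3* genes, the family related to α1-antichymotrypsin. It was at 17066, 14145, 14962, 15556 and 17254 CPM in the WT livers and at 4653, 2326, 3178, 2048 and 6337 in the Ndrg3 LKO livers. The groups did not overlap, and replicate 5 was the highest Ndrg3 LKO liver, 2.49 times below the WT mean. Its log2 fold change was -2.09 ± 0.31 with all livers and -2.38 ± 0.25 without replicate 5, the smallest shift among *Serpina3k*, *3m* and *3n*.

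*Serpina3m* was at 772, 731, 792, 740 and 765 CPM in the WT livers, which gave the lowest spread of the 10 genes, a CV of 3.26%. It was at 39.1, 45.9, 76.3, 41.1 and 267 CPM in the Ndrg3 LKO livers. *Serpina3n*, whose product inhibits granzyme B and which is known to be induced in the acute phase, was at 466, 658, 320, 486 and 460 CPM in the WT livers and at 31.4, 28.2, 51.1, 16.3 and 105 in the Ndrg3 LKO livers. Neither gene's groups overlapped, and replicate 5 was again the highest Ndrg3 LKO liver for both. Their log2 fold changes without replicate 5 were alike, -3.92 ± 0.22 for *3m* and -3.92 ± 0.33 for *3n*, and with all livers -3.02 ± 0.52 and -3.37 ± 0.45. The share of *Serpina3k* in the summed counts of the 3 genes was 92.7 ± 0.944% (SD, n = 5) in the WT livers, 96.1 to 98.5% in Ndrg3 LKO replicates 1 to 4 and 94.5% in replicate 5.

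*Serpina6*, the gene of corticosteroid-binding globulin, was at 265, 261, 283, 327 and 221 CPM in the WT livers. It was at 62.1, 11.8, 27.2 and 39.5 CPM in Ndrg3 LKO replicates 1 to 4 and at 669 in replicate 5. Replicates 1 to 4 were thus below every WT liver, and replicate 5 was above every WT liver, at 2.46 times the WT mean. The log2 fold change of *Serpina6* was -2.96 ± 0.38 without replicate 5 and -0.75 ± 0.87 with it. With all livers it was -2.24 by limma on log2(CPM + 1) values and -2.53 with a replicate block, so that its size differed with the fit as well as with the liver.

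**Figure D3:**
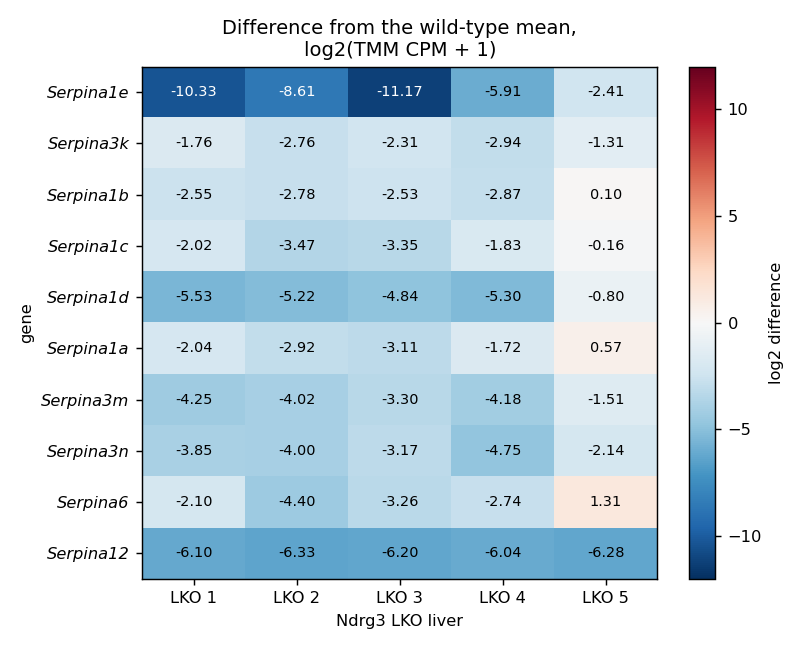
Difference of each Ndrg3 LKO liver from the WT mean on the log2(TMM CPM + 1) scale for the 10 *Serpina* genes, in colour and as numbers; blue is below and red above the WT mean. Replicate 5 is the palest column for 9 genes and reaches 1.31 for *Serpina6*, while *Serpina12* lies between -6.33 and -6.04 in all 5 livers.

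Replicate 5 had more than replicates 1 to 4 for 9 of the 10 genes, and *Serpina12* was the exception. The share of all genes with this pattern was not counted, so nothing is read from the 9. Against the mean of replicates 1 to 4 it was 37.4 times higher for *Serpina1e*, 21.4 for *1d*, 19 for *Serpina6*, 5 to 7.49 for *1a*, *1b* and *1c*, and 2.08 to 5.27 for the *Serpina3* genes. On the log2(CPM + 1) scale *Serpina12* was 6.28 below the WT mean in replicate 5 and 6.04 to 6.33 below it in the others. By another measure, replicate 5 was inside the WT range for 2 of the 10 genes and above it for 2. Among all tested genes, 2536 were below every WT liver in replicates 1 to 4, and replicate 5 was not below every WT liver for 750 of them, or 29.6%.

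The order of the 10 genes by level also differed between the groups. On the scale of mean CPM per kilobase of exon in WT livers, *Serpina1e* (10539 ± 1168, SD, n = 5) and *Serpina3k* (9551 ± 812) came first with overlapping ranges. *Serpina1b* (4515 ± 515), *1c* (3512 ± 411) and *1d* (2479 ± 266) followed, each with a range overlapping the next, and *1a* (1172 ± 177) stood apart below them. *Serpina3m* (458 ± 14.9), then *Serpina3n* (232 ± 58.3) and *Serpina6* (154 ± 21.8), which overlapped, and last *Serpina12* (24.4 ± 7.33) completed the order. In Ndrg3 LKO replicates 1 to 4 *Serpina3k* was first on the same scale, with 1845 ± 708 (SD, n = 4), without overlap with *1b* (701 ± 81.1). *Serpina1e* was then sixth, with 52.8 ± 81, between *1d* (66.4 ± 14) and *3m* (30.5 ± 10.5). Its range of 3.93 to 173 overlapped those of *1a*, *1d*, *3m*, *Serpina6* and *3n*, so its place is not fixed. *Serpina12* remained last, with 0.0632 ± 0.0289. This scale divides by all exon bases, 2264 for *1a*, whose transcript in the window comparison has 1581. It also takes no account of windows shared between paralogs, whose share was largest for *1c* and *1a*. The order of *Serpina1a* to *1e* among themselves is therefore uncertain in both groups.

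All 10 genes lie in a single cluster of *Serpina* genes on chromosome 12 (mm9 chr12:104854885-105652539, 797.7 kb), which holds 24 counted *Serpina* genes. Of the other 14 in the cluster 7 had enough counts to be tested, and 5 of them fell and 2 rose (edgeR adjusted p under 0.05), the median of the 7 being -1.50 on the log2 scale. All 7 also passed the test without replicate 5, in the same directions. In comparison, 23.0% of all tested genes fell and 25.6% rose, and without replicate 5 27.2% fell and 28.4% rose. Of the 10 nearest counted genes outside the cluster, 5 on each side, 8 were tested, of which 2 rose and 2 fell, with a median of 0.20. The flanking genes were named for their position. *Clmn*, at -0.90, and *Dicer1*, at -0.56, on one side were lower, calls that both lost with library-size scaling (-0.38 and -0.032), and *Ifi27l2b*, at 2.51, and *Ifi27l2a*, at 0.90, on the other side were higher. *Ifi27l2a* was close to the threshold (adjusted p = 0.0486) and lost the call under 10 of 16 alternatives, among them the fit without replicate 5 (0.85, adjusted p = 0.0685). *Otub2*, singled out after its value had been seen, did not pass with all livers (0.69, adjusted p = 0.0815) but did without replicate 5 (0.87, adjusted p = 0.00966).

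**Figure D4:**
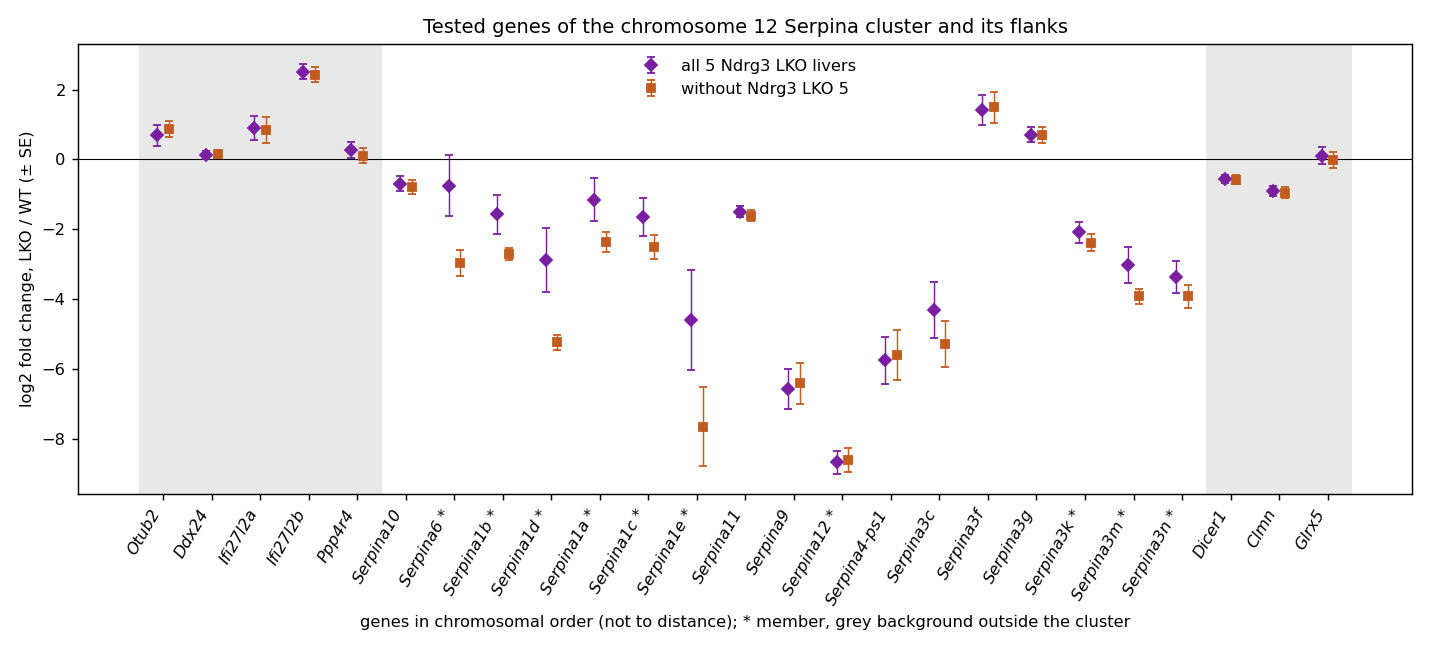
log2 fold change, Ndrg3 LKO over WT, with its SE, of the tested genes in and beside the *Serpina* cluster in chromosomal order, with all Ndrg3 LKO livers (purple) and without replicate 5 (orange); asterisks mark the 10 genes and grey the genes outside the cluster. *Serpina3f* and *Serpina3g*, between *Serpina3c* at -4.32 and *Serpina3k* at -2.09, are the 2 tested *Serpina* genes of the cluster above 0.

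In chromosomal order, all tested genes of the cluster but *Serpina3f* and *Serpina3g* had log2 fold changes below 0. These genes had low WT means, 0.707 and 3.89 CPM. *Serpina9*, next to *Serpina12*, was at 1.56 to 4.34 CPM in the WT livers and at 2, 0, 3, 0 and 0 counts in the Ndrg3 LKO livers, at or under the lowest signal in each (adjusted p = 1.07e-05). *Serpina4-ps1*, the pseudogene on its other side, was at 176, 76, 160, 465 and 75.6 CPM in the WT livers and at 5.55, 1.91, 1.57, 6.87 and 1.74 in the Ndrg3 LKO livers, a log2 fold change of -5.75 ± 0.67 (adjusted p = 6.52e-05). Like *Serpina12*, both genes were as low in replicate 5 as in the other Ndrg3 LKO livers. *Serpina11* was at 139 ± 18.4 CPM (SD, n = 5) in the WT livers and at 34.7 to 61.1 in the Ndrg3 LKO livers, a log2 fold change of -1.50 ± 0.16 (adjusted p = 3.95e-05).

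*Serpina3c* was at 48.6 to 60.5 CPM in the WT livers and at 0.115, 2.4, 0.206, 2.91 and 8.77 in the Ndrg3 LKO livers, and fell by 4.32 ± 0.80 on the log2 scale (adjusted p = 0.00114), with a log2 fold change of -5.29 without replicate 5 (adjusted p = 4.94e-05). Its lowest Ndrg3 LKO livers, replicates 1 and 3, were also those with the least *Serpina1e*. *Serpina10*, which with protein Z inhibits coagulation factor X, was at 310 ± 80 CPM in the WT livers and at 137 to 245 in the Ndrg3 LKO livers. It fell by 0.69 ± 0.21 on the log2 scale (adjusted p = 0.0164), a call that was lost with library-size scaling, where its log2 fold change was -0.19. *Serpina3f* and *Serpina3g* rose by 1.42 ± 0.42 (adjusted p = 0.0152) and 0.71 ± 0.22 (adjusted p = 0.018) on the log2 scale, from WT means of 0.707 and 3.89 CPM, and *Serpina3g* lost the call with the replicate block (0.68).

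*Serpina5*, the protein C inhibitor gene, was at 1.71 ± 1.14 CPM in the WT livers and below every WT liver in the 5 Ndrg3 LKO livers, and was too low to be tested. *Serpina3a*, *3b*, *3h* and *3i* averaged at most 0.252 CPM in the WT livers and in Ndrg3 LKO replicates 1 to 4 and were not tested, and *Serpina1f* and *Serpina3j* had 0 counts in every liver.

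*Serpina7*, the *Serpina* gene outside the cluster, moved the other way. It lies on the X chromosome (mm9 chrX:135613796-135619775) and encodes thyroxine-binding globulin, a plasma carrier of thyroid hormone. It was at 9.37, 12.6, 18, 15.2 and 11 CPM in the WT livers and at 315, 226, 311, 195 and 60.5 in the Ndrg3 LKO livers. The groups did not overlap, and replicate 5 was again the nearest to the WT livers. *Serpina7* rose by 4.07 ± 0.40 on the log2 scale (adjusted p = 2.21e-05), and by 4.29 without replicate 5 (adjusted p = 1.18e-07).

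Serpins of other clades changed in both directions. Of the 14 listed, 11 were tested, of which 6 fell and 2 rose, with a median log2 fold change of -0.77 against 0.031 for all tested genes, of which 23.0% fell and 25.6% rose. Without replicate 5, 8 of 12 fell and 3 rose, with a median of -1.01, beside 27.2% and 28.4% of all genes. *Serpine2*, which encodes the thrombin inhibitor protease nexin-1, was at 36.8 ± 9.79 CPM (SD, n = 5) in the WT livers and at 3.24 ± 2.43 in Ndrg3 LKO replicates 1 to 4, with 2.07 in replicate 5. *Serpinf1*, the gene of pigment epithelium-derived factor, was at 849 ± 61.7 CPM in the WT livers, 232 ± 73.1 in replicates 1 to 4 and 802 in replicate 5. *Serpinf2*, the gene of α2-antiplasmin, was at 768 ± 150, 193 ± 58.7 and 868 CPM in these groups. *Serpine2* thus stayed low in replicate 5, where *Serpinf1* was near and *Serpinf2* above the WT mean. Their log2 fold changes were -3.60 ± 0.41 (adjusted p = 5.48e-05), -1.30 ± 0.38 (adjusted p = 0.015) and -1.23 ± 0.46 (adjusted p = 0.0422), and -3.52, -1.89 and -2.0 without replicate 5. The call for *Serpinf2* was lost when any of the other 9 livers was left out. *Serpinh1*, a collagen chaperone rather than an inhibitor, rose by 1.54 ± 0.20 (adjusted p = 0.000142), from 6.58 ± 1.42 CPM to 19.1 ± 5.5 in replicates 1 to 4 and 19 in replicate 5.

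Of 15 genes of proteases and cofactors that these serpins are known to meet, 8 were tested, all of them plasma coagulation, kallikrein or fibrinolysis genes. Among these 7 of 8 fell and none rose, with a median log2 fold change of -1.27, beside 23.0% lower and 25.6% higher over all tested genes. Without replicate 5 all 8 fell, with a median of -1.62, beside 27.2% lower over all. *F11* fell by 1.62 ± 0.29 (adjusted p = 0.00102), *Plg*, the plasminogen gene, by 1.55 ± 0.33 (adjusted p = 0.0025) and *Proc*, the protein C gene, by 1.36 ± 0.28 (adjusted p = 0.00208) on the log2 scale. *Proz*, which encodes protein Z, the cofactor of the *Serpina10* product, fell by 1.43 ± 0.25 (adjusted p = 0.000784). *Klk7*, which encodes the target of vaspin, had 0 counts in every liver, and *Elane*, the neutrophil elastase gene, averaged 0.0849 CPM in the WT livers. These genes were singled out after their values had been seen.

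Among 10 genes of glucocorticoid handling and response, chosen because *Serpina6* carries these hormones, 5 fell and 2 rose, with a median log2 fold change of -1.0, while 23.0% of all tested genes fell and 25.6% rose. The counts were the same without replicate 5, with a median of -1.55, beside 27.2% lower and 28.4% higher over all tested genes. *Srd5a1* and *Akr1d1* encode steroid reductases. *Srd5a1* was at 166 ± 20.8 CPM (SD, n = 5) in the WT livers, 7.09 ± 1.43 in Ndrg3 LKO replicates 1 to 4 and 26 in replicate 5. It fell by 3.94 ± 0.41 on the log2 scale (adjusted p = 3.2e-05), with a log2 fold change of -4.56 without replicate 5 (adjusted p = 3.49e-08). *Akr1d1* was at 168 ± 51.5 CPM in the WT livers, 3.18 ± 1.99 in replicates 1 to 4 and 57.6 in replicate 5, and fell by 3.60 ± 0.93 (adjusted p = 0.0075), with a log2 fold change of -5.73 without replicate 5 (adjusted p = 9.54e-07). *Hsd11b1*, whose product regenerates active glucocorticoid in the liver, was at 675 ± 108 CPM (SD, n = 5) in the WT livers, 27.3 ± 4.44 in Ndrg3 LKO replicates 1 to 4 and 292 in replicate 5, and fell by 3.07 ± 0.72 (adjusted p = 0.00439), with a log2 fold change of -4.64 without replicate 5 (adjusted p = 3.49e-08). All 3 were below every WT liver in replicate 5, where *Serpina6* was above them. *Sgk1*, a kinase gene known to be induced by glucocorticoids, rose by 4.29 ± 0.24 (adjusted p = 8.98e-07), from 13 ± 1.8 CPM to 259 ± 96.7, with 235 in replicate 5. The other response genes of the list did not move together with it. *Per1* rose by 1.23, *Fkbp5* fell by 2.44 and *Tat* by 1.78, and *Tsc22d3* (-0.21) and *Zbtb16* (0.23) did not pass the test. Without replicate 5 the log2 fold changes of *Fkbp5* and *Tat* were -3.40 and -2.67.

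Of 18 genes of liver transcription factors and of interleukin 6 signalling, which regulate acute phase serpin genes, 5 fell, 2 rose and 11 did not pass the test, beside 23.0% lower and 25.6% higher over all tested genes. Without replicate 5, 5 fell and 3 rose, with a median of -0.052, beside 27.2% lower and 28.4% higher over all tested genes. With all livers the median log2 fold change was -0.12, and 0.43 with library-size scaling, where the median of all genes was 0.56. *Cebpa* fell by 1.76 ± 0.28 (adjusted p = 0.000475), *Hnf4a* by 1.58 ± 0.21 (adjusted p = 0.000134) and *Il6ra*, which encodes the receptor of interleukin 6, by 1.44 ± 0.27 (adjusted p = 0.00132). *Hnf4a* was at 688 ± 72.2 CPM in the WT livers, 197 ± 20.7 in Ndrg3 LKO replicates 1 to 4 and 362 in replicate 5. *Cebpd* fell by 0.97 ± 0.35 (adjusted p = 0.0346), a call lost under 9 of the alternatives tried.

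Serpins reach plasma through the glycoprotein pathway of the endoplasmic reticulum, where misfolded α1-antitrypsin is degraded. Of 12 genes of this pathway 5 fell, 1 rose and 6 did not pass the test, beside 23.0% lower and 25.6% higher over all tested genes, with a median log2 fold change of -0.43, and 0.09 with library-size scaling. Without replicate 5, 5 fell and 2 rose, with a median of -0.46, beside 27.2% lower and 28.4% higher over all tested genes. *Syvn1* and *Edem1*, which act in the degradation of misfolded glycoproteins, fell by 0.99 ± 0.19 (adjusted p = 0.00143) and 0.94 ± 0.23 (adjusted p = 0.00625). *Uggt1*, the folding sensor, fell by 0.70 ± 0.13 (adjusted p = 0.00104), but by 0.17 and without a call when scaled by library size. *Mcfd2*, part of a cargo receptor that carries secreted proteins out of the reticulum, rose by 0.83 ± 0.15 (adjusted p = 0.000997).

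Other plasma proteins of hepatocytes gave a comparison for the *Serpina* levels. Of 14 such genes 9 fell, none rose and 5 did not pass the test, with a median log2 fold change of -1.09, beside 23.0% lower and 25.6% higher over all tested genes. Without replicate 5, 11 fell and none rose, with a median of -1.52, beside 27.2% and 28.4%. The medians over the 10 *Serpina* genes, chosen on these values, were -2.49 and -3.44. *Apoa1*, the gene of the main protein of high-density lipoprotein, was at 21657 ± 3175 CPM in the WT livers, 1862 ± 753 in Ndrg3 LKO replicates 1 to 4 and 13994 in replicate 5, and fell by 2.34 ± 0.65 (adjusted p = 0.011), with a log2 fold change of -3.55 without replicate 5 (adjusted p = 5.53e-06). The fibrinogen genes *Fga*, *Fgb* and *Fgg* fell by 1.48 ± 0.28 (adjusted p = 0.00138), 1.56 ± 0.25 (adjusted p = 0.000489) and 1.57 ± 0.34 (adjusted p = 0.00301). *Alb*, named for its abundance, was at 94358 ± 13280 CPM in the WT livers, 22864 in replicates 1 to 4 and 107850 in replicate 5, and fell by 1.24 ± 0.47 (adjusted p = 0.0437), with a log2 fold change of -2.06 without replicate 5 (adjusted p = 3.47e-06). The call for *Alb* was lost when any of the other 9 livers was left out (-1.31 to -1.08).

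**Figure D5:**
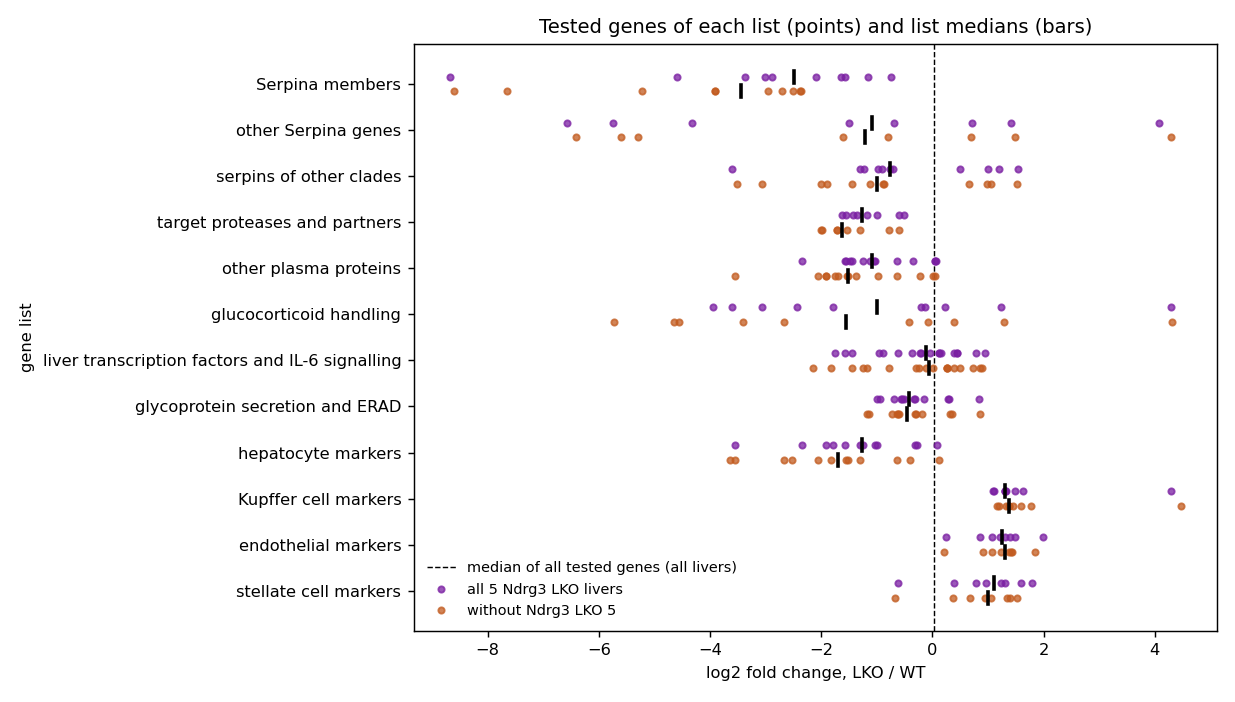
log2 fold changes, Ndrg3 LKO over WT, of the tested genes of each list (points) and list medians (black bars), with all Ndrg3 LKO livers (purple) and without replicate 5 (orange); the dashed line is the median of all tested genes, 0.031. The *Serpina* genes, chosen on these values, have a median of -2.49, and the hepatocyte, Kupffer cell, endothelial and stellate cell markers have medians of -1.27, 1.31, 1.26 and 1.10.

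Most hepatocyte markers fell, and most Kupffer cell, endothelial and stellate cell markers rose. The counts of each list are to be read beside the 23.0% of all tested genes that fell and the 25.6% that rose, or 27.2% and 28.4% without replicate 5. Of 12 hepatocyte markers, all present, 9 fell and none rose (11 and none without replicate 5, with medians of -1.27 and -1.69), and their summed level was 152148 to 198524 CPM in the WT livers, 42293 to 49270 in Ndrg3 LKO replicates 1 to 4 and 159449 in replicate 5, with *Alb* the most abundant. *Cyp2e1* fell by 3.56 ± 0.23 (adjusted p = 1.77e-06), and at 1381 CPM it was low in replicate 5 too, whereas *Tdo2* and *Tat*, which fell by 1.91 ± 0.39 (adjusted p = 0.00193) and 1.78 ± 0.52 (adjusted p = 0.0145), were at 2083 and 5016 there. Without replicate 5 the log2 fold changes of *Tdo2* and *Tat* were -2.52 and -2.67 (adjusted p = 1.06e-06 and 1.15e-05). The 9 Kupffer cell markers in the files all rose, and their sum, led by *Clec4f*, was 107 to 296 CPM in the WT livers, 237 to 775 in replicates 1 to 4 and 344 in replicate 5. *Marco* rose by 4.30 ± 0.53 (adjusted p = 9.07e-05), *Cd68* by 1.63 ± 0.34 (adjusted p = 0.00223), *Csf1r* by 1.49 ± 0.34 (adjusted p = 0.00377) and *Vsig4* by 1.32 ± 0.36 (adjusted p = 0.0101). All 9 also rose without replicate 5, with medians of 1.31 with all livers and 1.38 without it.

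Of 8 endothelial markers 7 rose, beside 25.6% of all tested genes, with sums, led by *Clec4g*, of 61.5 to 84.3 CPM in the WT livers, 143 to 176 in replicates 1 to 4 and 134 in replicate 5. *Lyve1* rose by 1.99 ± 0.34 (adjusted p = 0.000772), *Cdh5* by 1.48 ± 0.17 (adjusted p = 4.7e-05), *Tek* by 1.40 ± 0.21 (adjusted p = 0.000279) and *Pecam1* by 1.31 ± 0.14 (adjusted p = 4.47e-05). Of 8 stellate cell markers 5 rose, with sums, led by *Dcn*, of 112 to 178, 241 to 313 and 246 CPM. The collagen genes *Col3a1* and *Col1a1* rose by 1.79 ± 0.31 (adjusted p = 0.000813) and 1.59 ± 0.37 (adjusted p = 0.00412), and *Lrat* and *Dcn* by 1.31 ± 0.21 (adjusted p = 0.00047) and 0.97 ± 0.17 (adjusted p = 0.000933). Without replicate 5 the counts of both lists were the same, with medians of 1.31 and 1.0. Of 5 tested cholangiocyte markers of 7, 1 rose (*Spp1*, the most abundant, by 1.27 ± 0.39, adjusted p = 0.0181) and 1 fell (*Sox9*, by 0.86 ± 0.26, adjusted p = 0.0157), while 2 rose and 1 fell without replicate 5, with medians of 0.59 and 0.68. With all livers these counts were near the 25.6% higher and 23.0% lower of all tested genes. *Spp1* lost the call with the replicate block and without Ndrg3 LKO replicate 1 (1.03 and 0.85), and *Sox9* with library-size scaling (-0.29). Their sum was 38.5 to 71.7 CPM in the WT livers, 51.2 to 220 in replicates 1 to 4 and 51 in replicate 5. The 9 neutrophil markers in the files were too low to be tested, with sums, led by *S100a9*, of 0.298 to 1.06 CPM in the WT livers, 0.994 to 3.71 in replicates 1 to 4 and 16.5 in replicate 5. The part of these cell types in the levels of the *Serpina* genes was not tested.

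Adipocyte markers were read beside *Serpina12*, since vaspin is known from adipose tissue. Of 10, 4 were tested and 2 rose, beside 25.6% of all tested genes. *Fabp4* rose by 1.75 ± 0.51 (adjusted p = 0.014), and by 1.16 without replicate 5 (adjusted p = 0.0259), and *Lpl* by 1.67 ± 0.44 (adjusted p = 0.00801). Both also passed without replicate 5, and the median of the 4 was 0.96 with all livers and 0.76 without it. The sum of the markers, led by *Lpl*, was 34.7 to 59.6 CPM in the WT livers, 42.3 to 149 in replicates 1 to 4 and 171 in replicate 5. *Adipoq* was at 0.0488 to 1.56 CPM in the WT livers and 0 to 5.02 in replicates 1 to 4, and *Cfd* at 0.298 to 7.67 and 0.057 to 21.9. *Plin1* and *Retn* reached at most 0.459 and 1.15 CPM in the WT livers and 1.65 each in replicates 1 to 4, and *Lep* had 0 counts in every WT liver. These 5 are the genes of the list with 0 counts in replicate 5. The other 5 were not at 0 there. *Lpl* was at 90.1 and *Fabp4* at 61.6 CPM in replicate 5, against WT means of 13.5 and 7.82. *Cidec*, *Pparg* and *Cidea* were at 12.9, 6.32 and 0.613 CPM, against WT means of 17.7, 6.13 and 0.434. The part of adipose tissue in the *Serpina12* level was not tested.

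Genes outside the 10 whose profile was most like that of *Serpina12* were sought among 7630 tested genes with at least 10 CPM in the higher group. Likeness was the root mean square difference of log2(CPM + 1) values, each centred on the gene's own WT mean, over all 10 livers. *Mup12*, a major urinary protein gene, was closest at 0.32, from 119 CPM in the WT livers to 0.405 in Ndrg3 LKO replicates 1 to 4 and 0.283 in replicate 5. *Slc22a7*, an organic anion transporter gene, followed at 0.54, then *Nlrp12* and *Scara5* at 0.75 and *Mup1* at 0.76. Since replicate 5 was among the livers that chose these genes, its values are a description. *Mup12*, *Scara5* and *Mup1* were no higher in replicate 5 than the mean of the other Ndrg3 LKO livers. *Slc22a7* and *Nlrp12* were higher there, at 1.37 against 0.143 CPM and 5.09 against 0.249.

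For *Serpina1e* no gene was as close. *Cyp8b1*, a sterol hydroxylase of bile acid synthesis, differed by 1.22 and *Ces3b*, a carboxylesterase gene, by 1.24, followed by *Selenbp2* at 1.54, *1100001G20Rik* at 1.83 and *Mup21* at 1.91. *Cyp8b1* was at 589 CPM in the WT livers, 1.4 in Ndrg3 LKO replicates 1 to 4 and 102 in replicate 5, and *Ces3b* was at 635, 1.49 and 34.8. All 5, chosen for likeness over livers that include replicate 5, were higher in it than the mean of the other Ndrg3 LKO livers.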

How the data were processed

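RNA from the livers of 5 WT and 5 Ndrg3 LKO mice was sequenced by the authors as 100 bp paired-end reads from stranded mRNA libraries. The deposited values are counts per gene symbol, whole numbers without normalization, although the files are named as CPM. The authors mapped reads to mm9 and counted them with STAR. The submitters' processing notes give STAR 2.7.3a, Trim Galore 0.6.4 and Cufflinks 2.2.1, and the methods an earlier STAR version. The annotation and strand setting are not given in the sources used here.

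Genes that reached 1 CPM in 5 or more livers (4 where a liver was left out) were tested with edgeR 4.0.16 in R 4.3.3, by the quasi-likelihood test with TMM scaling and Benjamini-Hochberg adjustment over all genes tested, at 0.05. The SE of a log2 fold change is its size divided by the square root of F. Alternatives were other scalings, DESeq2 1.42.0, limma 3.58.1, no filter, a replicate block and each liver left out. On simulated data the test was checked before use. Positions, lengths and coding sequences are from the GENCODE annotation of mm9, and promoters from RefSeq on GRCm38.p6. No pair of libraries held identical values.

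The 10 genes and the gene lists were chosen with earlier results of these data known. Of each list the changed genes with the 4 largest log2 fold changes were named, and every other *Serpina* gene with any count. *Serpina16*, *Adgre1* and *Ly6g* were listed but not among the symbols. Nothing says whether livers came from separate litters, so p-values measure the spread between these livers. Some results are not reported here.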

Additional observations from a re-analysis of the deposited data

Results flagged for a closer look

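Within each group the highest and lowest liver of 18 *Serpina* genes were compared with the rest on the log2(CPM + 1) scale, in 36 groups of 5 livers, where chance alone marks about 1 group in 20. In 2 groups the gap of a single liver to its nearest neighbour was more than 0.71 of the group's range. That is about as many as chance alone marks. Both flagged genes were among those chosen from these livers, so the gaps are given as a description. Ndrg3 LKO replicate 5 had 6713 CPM of *Serpina1b*, a gap of 0.886 of the range, and 1977 CPM of *Serpina1d*, a gap of 0.853. Both were far above the other 4 Ndrg3 LKO livers.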

How the results depend on the processing

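The log2 fold changes of the 10 *Serpina* genes stayed below 0 under all 16 alternatives. Their median was -2.49. *Serpina12* ranged from -8.90 to -6.19, the latter with limma on log2(CPM + 1), where the pseudocount limits a gene near 0, and *Serpina1e* from -8.17 to -4.27. *Serpina6* ranged from -2.96 to -0.45 and *Serpina1a* from -2.36 to -0.84, and both lowest values came from leaving out Ndrg3 LKO replicate 5. The number of genes that differed was 4703 to 6360 over the 10 fits that left out a liver, and 5443 with all livers. The counts in the gene lists stayed within 1.5 times their value under all alternatives, except for 2 marker lists. Of the cholangiocyte markers 2 changed with all livers, 1 with the replicate block and 1 to 3 over the fits that left out a liver, with 1 without Ndrg3 LKO replicate 1. Without the filter on low counts 4 neutrophil markers rose where none had been tested, *S100a8* (2.46), *S100a9* (2.49), *Retnlg* (2.84) and *Cxcr2* (2.86). Of 51 named genes 7 lost the call under at least 1 alternative and none changed direction. These were *Serpinf2*, under 9 (-1.29 to -1.01), *Cebpd*, under 9 (-1.02 to -0.50), *Spp1*, under 2 (0.85 and 1.03), *Serpina10* (-0.19), *Uggt1* (-0.17) and *Sox9* (-0.29) with library-size scaling, and *Serpina3g* (0.68) with the replicate block. The flanking genes *Clmn* (-0.38) and *Dicer1* (-0.032) lost the call with library-size scaling, and *Ifi27l2a* under 10 alternatives (0.54 to 0.96), and *Alb* when any liver but Ndrg3 LKO replicate 5 was left out. The cause was not tested.

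Both groups carry replicate numbers 1 to 5, but nothing says that a number pairs livers, and same-numbered livers did not deviate together (r = -0.357 to 0.0363, mean -0.216 over 11208 genes). In a fit blocked by replicate number 4412 genes differed, and the median of the 10 *Serpina* genes was -3.02. The block moved *Serpina1e* from -4.59 to -8.17, *Serpina1d* from -2.88 to -4.60, *Serpina6* from -0.75 to -2.53, *Serpina1a* from -1.15 to -1.90 and *Serpina1b* from -1.57 to -2.20. With limma *Serpina1e* was at -7.69, *Serpina1d* at -4.34 and *Serpina6* at -2.24. Depth limits *Serpina12* and *Serpina9*, whose Ndrg3 LKO counts were near the lowest signal.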

Other observations

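A few genes of the lists were singled out after their values had been seen. *Gc* and *Rbp4*, the genes of the plasma carriers of vitamin D and retinol, were at 6838 and 5433 CPM in the WT livers, 6973 and 5657 in replicates 1 to 4 and 7758 and 5509 in replicate 5, with log2 fold changes of 0.06 ± 0.16 (adjusted p = 0.776) and 0.051 ± 0.16 (adjusted p = 0.816). *Fkbp5*, a glucocorticoid-induced gene, fell by 2.44 ± 0.52 on the log2 scale (edgeR adjusted p = 0.00258), with a log2 fold change of -3.40 without replicate 5 (adjusted p = 2.04e-07), and *Per1* rose by 1.23 ± 0.19 (adjusted p = 0.000387).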
